A study of Mus musculus with 4 samples.

Results

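The 7 genes BC051142, Nudt13, Sfi1, Plekhg2, Tbc1d10c, 2410002F23Rik and Zfp644 each carried at least 5 altered alternative splicing (AS) events between wild-type and hnRNP F-deficient follicular B (FOB) cells, while their total mRNA was not called differentially expressed. They were chosen by the number of their events in the deposited splicing table, which listed 1556 events in 1173 genes. Of the 13 genes with 5 or more events, Sipa1, Cd40, Fcer2a, Trmt2a, Slc22a17 and Ftx were left out by name. The 7 genes held 36 of the events, and all 7 passed the filter on low counts that left 14123 of 55401 genes for testing. The selection rests on the same contrast between the genotypes as the values given for it, so both the events and the abundance of these genes in that contrast are a description, and counts of these genes that passed a threshold of the fit over all genes are no independent result.

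The WT and Hnrnpf bKO genotypes of C57BL/6 mice, 7 weeks old per the labels, were compared with 2 RNA-seq libraries each. The Hnrnpf bKO mice carried Hnrnpf fl/fl and a Cre recombinase active in B cells, which removes exon 4 of Hnrnpf, and the WT controls carried Hnrnpf fl/fl without Cre, so that both genotypes had the floxed alleles and Cre was present in the bKO mice alone. FOB cells were sorted from spleen as B220+CD93-CD23highCD21low cells. The libraries came from a single experiment, and whether a library pooled several mice was not given in the sources used here.

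hnRNP F is an RNA-binding protein that recognizes runs of guanines (G-tracts) in pre-mRNA and, depending on where they lie, promotes or represses the use of a nearby exon. AS lets a gene change which mRNA it makes without changing how much mRNA it makes, so a gene-level count can stay level while an exon, an intron or a splice site is used differently. Tbc1d10c encodes carabin, an inhibitor of calcineurin and Ras in lymphocytes. Plekhg2 encodes a guanine nucleotide exchange factor for small GTPases. Sfi1 encodes a centrin-binding protein of the centrosome, Nudt13 a mitochondrial Nudix hydrolase, and Zfp644 a zinc finger protein that works with the histone H3K9 methyltransferases G9a and GLP.

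The deposited table names the gene and the type of an event but gives no position, so an event cannot be assigned to an exon. To show what the annotation offers for alternative use in the 7 genes, cassette exons (exons that other transcripts of the same gene skip) and retained introns were taken from GENCODE on GRCm38. Those printed lie inside coding sequence, are written 5′ to 3′ on the RNA strand in DNA letters, and have G-tracts of at least 3 guanines in capitals.
Tbc1d10c cassette exon, chr19:4188246-4188311, minus strand, 66 bases: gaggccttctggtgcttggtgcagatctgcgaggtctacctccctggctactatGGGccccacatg
Tbc1d10c cassette exon, chr19:4187942-4188131, minus strand, 190 bases: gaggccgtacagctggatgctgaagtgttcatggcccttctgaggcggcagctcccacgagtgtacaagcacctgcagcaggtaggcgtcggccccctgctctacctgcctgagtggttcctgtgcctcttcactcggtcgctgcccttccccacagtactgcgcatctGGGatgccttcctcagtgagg
Plekhg2 annotated retained intron, chr7:28364510-28364584, minus strand, 75 bases: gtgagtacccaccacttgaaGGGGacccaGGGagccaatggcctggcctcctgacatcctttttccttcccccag
Sfi1 cassette exon, chr11:3143695-3143790, minus strand, 96 bases: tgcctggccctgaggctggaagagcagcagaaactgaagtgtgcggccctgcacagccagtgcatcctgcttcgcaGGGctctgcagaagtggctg
Sfi1 cassette exon, chr11:3145241-3145322, minus strand, 82 bases: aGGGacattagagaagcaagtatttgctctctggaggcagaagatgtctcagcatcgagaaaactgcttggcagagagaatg
Sfi1 cassette exon, chr11:3153432-3153498, minus strand, 67 bases: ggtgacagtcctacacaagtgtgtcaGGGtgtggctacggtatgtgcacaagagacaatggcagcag
Sfi1 cassette exon, chr11:3156772-3156864, minus strand, 93 bases: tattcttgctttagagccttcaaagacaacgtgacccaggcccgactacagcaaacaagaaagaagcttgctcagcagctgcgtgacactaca
Nudt13 cassette exon, chr14:20310622-20310733, plus strand, 112 bases: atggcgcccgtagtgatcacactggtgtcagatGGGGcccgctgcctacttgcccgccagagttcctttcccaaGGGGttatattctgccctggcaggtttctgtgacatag
BC051142 cassette exon, chr17:34420387-34420413, plus strand, 27 bases: gtgccGGGcttctggaccatgaggatg
BC051142 cassette exon, chr17:34446019-34446033, plus strand, 15 bases: ctgaGGGatccaacg
BC051142 cassette exon, chr17:34451631-34451654, plus strand, 24 bases: caaaatgtggaccacctataatat
The 3 BC051142 micro-exons, the 66-base Tbc1d10c exon, the 75-base Plekhg2 intron and the Sfi1 exons of 96 and 93 bases are multiples of 3, so their use adds or removes whole codons. The remaining Sfi1 exons printed, the 190-base Tbc1d10c exon and the 112-base Nudt13 exon are not, and their use shifts the reading frame. The cassette exons of 2410002F23Rik, Zfp644 and Plekhg2 lie outside this class and are not printed. Those printed are a selection of this class. Sfi1 exons of 131, 157 and 103 bases and a 139-base Tbc1d10c exon also lie inside coding sequence and are not printed. The same holds for annotated retained introns of BC051142 (75 and 74 bases) and Zfp644 (93 bases). The 75-base BC051142 intron and the Zfp644 intron have 0 G-tracts.

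Hnrnpf mRNA, the target of the deletion, fell from 5780 and 6634 counts per WT library to 1167 and 1194 counts per bKO library (log2 fold change -2.32, SE 0.06, edgeR), which matches the labels of all 4 libraries. Library totals ranged from 15698567 to 18908963 counts. The B cell markers Cd79a, Cd79b, Ms4a1, Pax5 and Cxcr5 had at least 7615 counts in every library. The summed level of 6 myeloid markers was 12.1 to 18.3 FPKM in WT and 26.7 to 41.9 FPKM in Hnrnpf bKO, higher in both bKO libraries for S100a8, S100a9 and Itgam, while Cd14 had 0 to 3 counts per library. The summed level of 7 T cell markers was 29.8 to 36.4 FPKM in WT and 26.2 to 29.6 FPKM in Hnrnpf bKO. The part of such cells in the values of the 7 genes was not tested. In bulk RNA, fewer cells of a type and less RNA per cell cannot be told apart.

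Skipped exons were the most frequent event of the 7 genes, as in the whole table, and most of these events were less included in Hnrnpf bKO. Of their 36 events, 25 were skipped exon events (69.4%, against 65.4% over the whole table), 5 used an alternative 3′ splice site, 3 were mutually exclusive exons, 2 used an alternative 5′ splice site and 1 was a retained intron. The included form was less used in Hnrnpf bKO in 24 events and more used in 12, so 66.7% were less included against 55.1% over the whole table. Mutually exclusive exon events enter these and later counts by sign alone, 1 as less and 2 as more included for the 7 genes. Which exon of such a pair counts as included is not given. Among skipped exon events, 19 of 25 (76.0%) were less included in Hnrnpf bKO, against 64.6% over the whole table. The 6 other genes with at least 5 events were close to this, with 21 events less and 13 more included (61.8% less) and 72.7% of their skipped exon events less included. A retained intron was 2.78% of the events of the 7 genes and 14.6% of the whole table, and mutually exclusive exons were 8.33% and 2.96%. These shares are a description, because the table holds only events that passed the authors' thresholds and rows of 1 gene can share an exon. Counted once for each gene, type and direction, the 36 events came to 21.

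**Figure D1:**
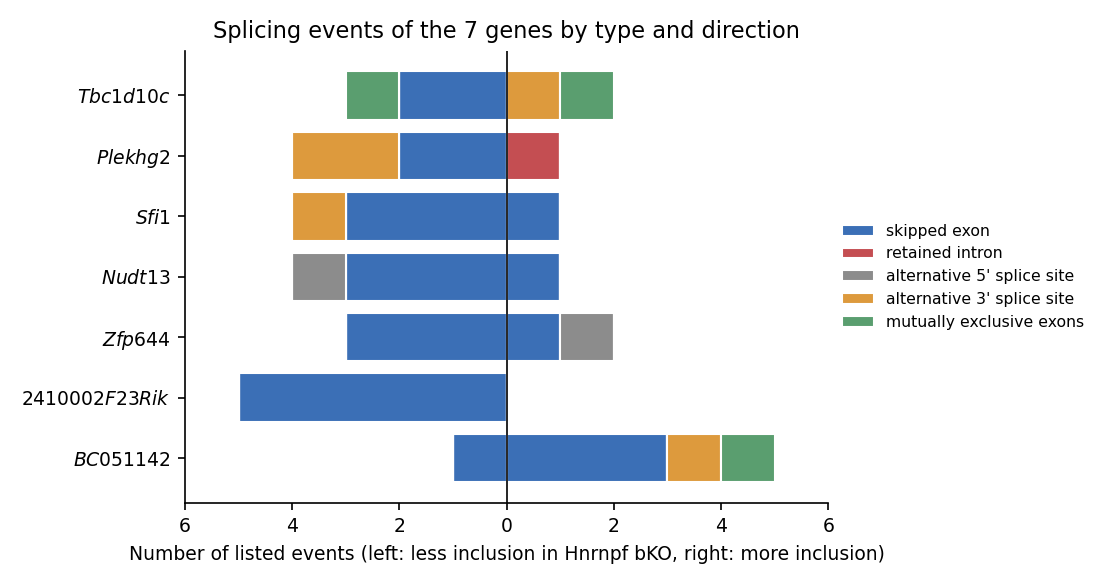
Number of listed splicing events of each of the 7 genes (horizontal axis) by event type (color), drawn to the left where the included form was less used in Hnrnpf bKO than in WT and to the right where it was more used. All 5 events of 2410002F23Rik lie to the left, and 5 of the 6 events of BC051142 lie to the right. Mutually exclusive exon events are drawn by sign alone, as which exon of the pair counts as included is not given.

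The 7 genes differed in direction. In 2410002F23Rik all 5 events were skipped exon events and all 5 were less included in Hnrnpf bKO, though such events can share an exon. In BC051142 the order was turned around: 3 of its 4 skipped exon events were more included in Hnrnpf bKO, as was its alternative 3′ splice site event (the longer exon form). Its mutually exclusive exon event had the same sign, from which it was not read which exon of the pair was used more. Nudt13, Sfi1 and Zfp644 shared a pattern of 3 skipped exon events less included and 1 more included. The last event set them apart. The longer exon form of an alternative 5′ splice site event was less used in Nudt13 and more used in Zfp644. In Sfi1 the longer exon form of an alternative 3′ splice site event was less used.

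Plekhg2 and Tbc1d10c, like BC051142, had events of 3 types. In Plekhg2, both skipped exon events and both alternative 3′ splice site events were less included in Hnrnpf bKO, while its retained intron event, the only one among the 7 genes, was more retained. In Tbc1d10c, both skipped exon events were less included, the longer form of the alternative 3′ splice site was more used, and the mutually exclusive exon events went 1 each way. For mutually exclusive exons the direction is read here only as a shift in the use of the pair. The sources used here do not say which exon counts as included. In the annotation, Tbc1d10c has a cassette exon of 115 bases and a form of it of 111 bases whose 3′ splice sites lie 4 bases apart. Whether the listed event uses these sites cannot be read from the table.

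By numbers of events per type and direction, the nearest other gene among the 26 other genes with at least 4 events was Glb1l for Nudt13, at a summed difference of 1 event. It was Fbrsl1 for BC051142, Fcer2a for Tbc1d10c and Ftx for 2410002F23Rik, each at a difference of 2 events. Sfi1 and Zfp644 each had 3 genes tied at 2 events, and Plekhg2 had 7 tied at 3 events. Just inside the threshold of 5 events stood 6 of the 7 genes with exactly 5, and BC051142 had 6. Just outside it, 14 genes had 4 events each, of which 26 were less and 30 more included in Hnrnpf bKO.

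None of the 7 genes was called between the genotypes, which took at least a 2-fold change and an adjusted p of at most 0.05 in edgeR's quasi-likelihood test, where 127 of 14123 genes (0.899%) were. None had an adjusted p of at most 0.05 at any fold, against 985 genes (6.97%) of all tested, of which 4.15% of all tested were higher and 2.83% lower in Hnrnpf bKO. At an unadjusted p under 0.05 there were 2 of the 7, Tbc1d10c and Plekhg2, against 20.3% of all genes tested. DESeq2 called none of the 7 and gave none an adjusted p of at most 0.05. The library-scaled counts (CPM) of the genotypes did not overlap in 3 of the 7, against 50.1% of all genes tested. Because the label of the group rests on this contrast, nothing is read from these counts. That no member passed does not show that the levels were equal, and the intervals below give the sizes of change allowed by 2 libraries a genotype.

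Tbc1d10c was the most abundant of the 7. It had 4080 and 4866 counts in WT, against 4360 and 5182 in the bKO libraries, or 68.8 and 71.0 against 76.7 and 79.1 FPKM. Both bKO libraries lay above both WT libraries. The log2 fold change was 0.17 (SE 0.05, n = 2 libraries each, 95% interval 0.06 to 0.28), a level 12.3% higher in Hnrnpf bKO with an interval of 4.11% to 21.1%, so that for this inhibitor of calcineurin the interval left out 0.

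Part of the sequence of Tbc1d10c is shared with another annotated gene. Gm50230 is an annotated retained-intron transcript on the same strand that runs from Tbc1d10c into the neighbouring Carns1, and 1286 exonic bases, 35.5% of those of Tbc1d10c, are also its own. Reads in that stretch cannot be told apart by gene, and how they were counted is not given in the sources used here. Gm50230 had 938 and 1102 counts in WT, against 1263 and 1333 in the bKO libraries. It was higher in both bKO libraries (log2 fold change 0.43, SE 0.07, adjusted p = 0.00325, edgeR), and its 1 listed event was a skipped exon more included in Hnrnpf bKO. With the counts of both genes summed, a choice made after seeing the data, the log2 fold change was 0.22 against 0.17 for Tbc1d10c alone, and the share of Gm50230 in the sum was 18.6% in WT and 21.4% in Hnrnpf bKO.

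Plekhg2, the exchange factor, moved the other way. Its counts were 3600 and 4041 in WT, against 3087 and 3440 in the bKO libraries, or 32.4 and 31.4 against 28.9 and 28.0 FPKM. Both bKO libraries lay below both WT libraries. The log2 fold change was -0.15 (SE 0.05, 95% interval -0.27 to -0.04), a change of -10.1% with an interval of -16.8% to -2.83%, which again left out 0. For Tbc1d10c and Plekhg2 the label of an unaltered abundance therefore means no call after adjustment, not a level shown to be equal.

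Sfi1, which encodes the centrin-binding protein, had 3208 and 3824 counts in WT, against 3171 and 3522 in the bKO libraries, or 25.9 and 26.8 against 26.7 and 25.8 FPKM. The libraries of the genotypes overlapped. Its log2 fold change of 0.01 (SE 0.05) had a 95% interval from -0.11 to 0.12. Of annotated sequences that resemble or share exons with it, Gm2420 holds a transcript 94.1% identical to Sfi1 over 1369 bases but had 8 to 18 counts per library. The antisense Gm11399 shares 77 exonic bases with Sfi1 and had 8 to 26 counts per library. Drg1 shares 167 exonic bases (2.21% of those of Sfi1) and had a log2 fold change of -0.14 (SE 0.07, adjusted p = 0.316, edgeR).

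2410002F23Rik, with its 5 less included skipped exon events, had 2682 and 3491 counts in WT, against 2666 and 2999 in the bKO libraries, or 31.3 and 35.3 against 32.5 and 31.7 FPKM. Both bKO libraries lay between the WT libraries, and the log2 fold change was -0.04 (SE 0.06, 95% interval -0.17 to 0.09). The gene also hosts small nucleolar RNAs, Snord88a and Snord88c among them, which had 0 to 10 counts per library, and Gm28496, which shares 437 of its exonic bases, had 3 to 6. Zfp644, the partner of the H3K9 methyltransferases, had 1280 and 1336 counts in WT, against 1243 and 1359 in the bKO libraries, or 5.59 and 5.05 against 5.66 and 5.37 FPKM. Its libraries overlapped as well, with a log2 fold change of 0.06 (SE 0.07, 95% interval -0.09 to 0.22).

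The remaining genes were the least expressed. Nudt13, the mitochondrial Nudix hydrolase, had 394 and 424 counts in WT, against 370 and 416 in the bKO libraries, or 4.88 and 4.55 against 4.78 and 4.67 FPKM. Both bKO libraries lay between the WT libraries (log2 fold change 0.01, SE 0.10, 95% interval -0.20 to 0.23). BC051142, the gene with the most events, had the lowest counts of the group, 132 and 174 in WT, against 160 and 185 in the bKO libraries, or 1.98 and 2.26 against 2.50 and 2.51 FPKM. Both bKO libraries lay above both WT libraries in FPKM, but the interval of the log2 fold change of 0.25 (SE 0.16) ran from -0.09 to 0.59 and took in 0.

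**Figure D2:**
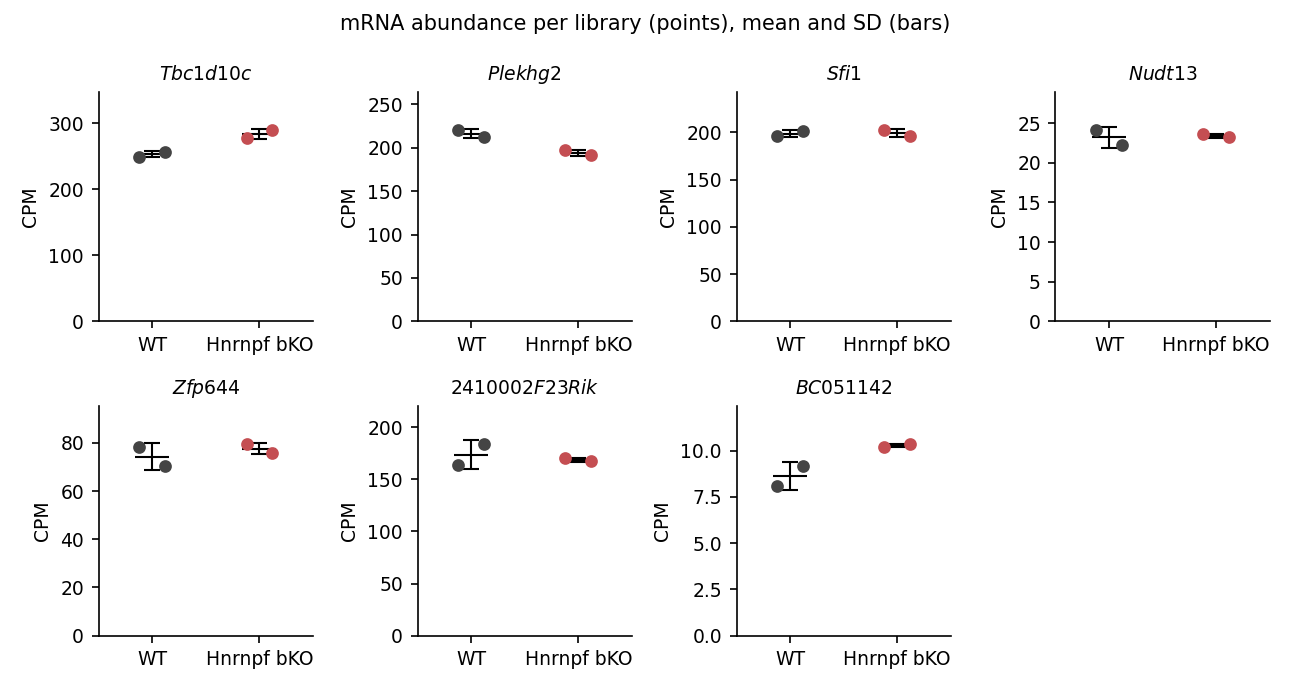
Library-scaled counts (CPM) of each of the 7 genes in the 2 WT and 2 Hnrnpf bKO libraries (points), with the mean and SD of each genotype (bars) and axes that start at 0. The genotypes do not overlap in Tbc1d10c, Plekhg2 and BC051142 and overlap in the other 4 genes.

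Per length, in FPKM, the order of levels was Tbc1d10c, 2410002F23Rik, Plekhg2, Sfi1, Zfp644, Nudt13 and BC051142. The values of 2410002F23Rik and Plekhg2 overlapped over the libraries, so these neighbours were not ordered. Tbc1d10c stood above 95.8% of all tested genes in FPKM, and 2410002F23Rik, Plekhg2 and Sfi1 above 88.7%, 87.6% and 85.4%. Zfp644 and Nudt13 lay near the middle, above 47.3% and 44.1% of tested genes, and BC051142 above 30.3%. Repeated splicing events were thus listed both in a highly expressed signalling gene and in genes of modest level.

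**Figure D3:**
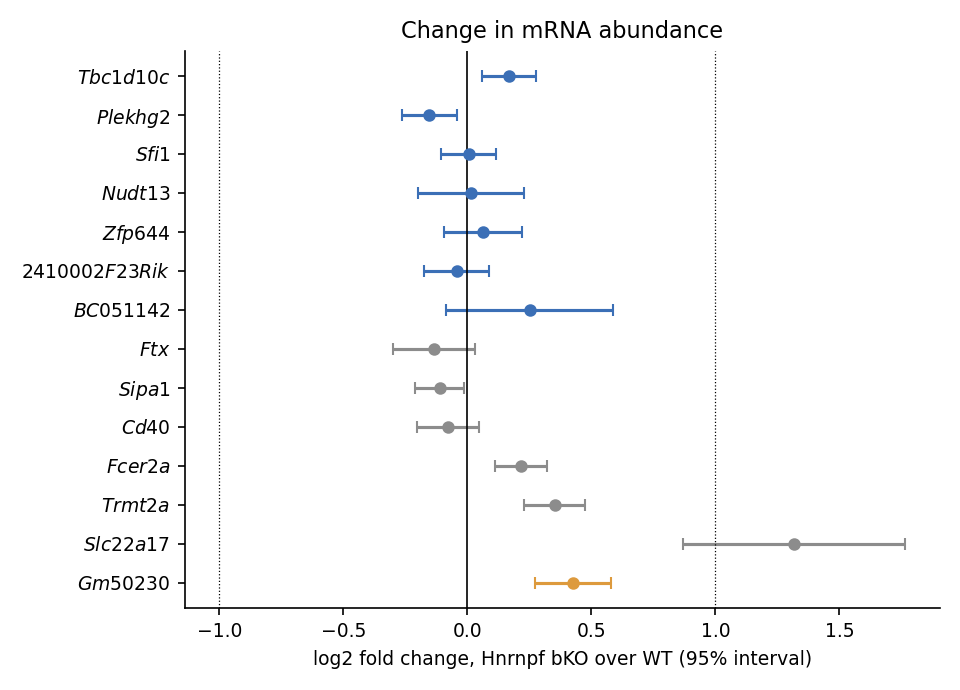
log2 fold change of mRNA abundance, Hnrnpf bKO over WT (horizontal axis), with 95% intervals from edgeR (bars), for the 7 genes (blue), the 6 other genes with at least 5 events (gray) and Gm50230, which overlaps Tbc1d10c (orange). Dotted lines mark a 2-fold change. The 7 genes lie between -0.15 and 0.25, and Slc22a17 lies past the dotted line at 1.32.

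The 6 genes with as many events that were left out by name had log2 fold changes from -0.13 for Ftx to 1.32 for Slc22a17, against -0.15 to 0.25 for the 7 genes. The next highest after Slc22a17 was Trmt2a at 0.35. Because the label of the 7 genes rests on this contrast, nothing is read from their narrower range. Of the 6, Fcer2a, Trmt2a and Slc22a17 passed an adjusted p of 0.05 and Slc22a17 alone was called. Sipa1, Cd40 and Ftx did not pass either. Neither these genes nor Fcer2a and Trmt2a were called, so the lack of a call was not particular to the 7 genes. Among the 14 genes with 4 events, log2 fold changes ran from -0.28 to 0.72, and 2 passed with none called.

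The 7 genes were annotated with more transcripts than most tested genes. GENCODE gives them 10 to 20 transcripts each (Sfi1 and 2410002F23Rik 20, Zfp644 18, Nudt13 16, BC051142 13, Plekhg2 and Tbc1d10c 10), against a median of 4 over all tested genes. Over all tested genes the median number of transcripts was 4 with no listed event, 8 with 1 event, 9.5 with 2 events, 12 with 3 events, 9 with 4 events and 13 with 5 or more. The median mean count was 339 with no event, 743 with 1 event, 956 with 2 events, 1221 with 3 events, 662 with 4 events and 2960 with 5 or more. Depth and annotation were thus highest with 5 or more listed events, but both were lower with 4 events than with 3. Their part in the choice of these genes was not tested.

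**Figure D4:**
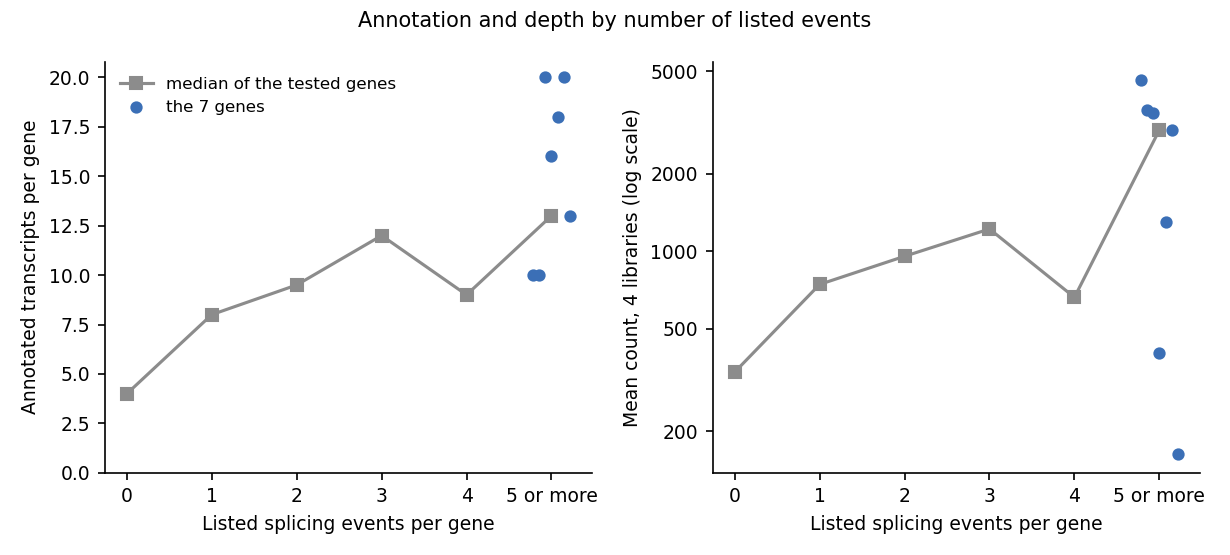
Annotated transcripts per gene (left) and mean count over the 4 libraries (right, log scale) against the number of listed splicing events per gene. Squares are medians over the tested genes of each class, from 4 transcripts with no event to 13 with 5 or more, and points are the 7 genes, which have 10 to 20 transcripts.

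The kind of alternative structure differed among the 7 genes. Annotated cassette exons numbered 8 in Sfi1, 7 each in Nudt13 and Tbc1d10c, 5 in BC051142, 4 in Zfp644, 3 in 2410002F23Rik and 1 in Plekhg2. Most rest on transcripts outside the basic set of the annotation, which alone gives 2 each in Sfi1 and BC051142, 1 each in Nudt13 and 2410002F23Rik, and 0 in Tbc1d10c, Zfp644 and Plekhg2. 2410002F23Rik had 14 annotated retained introns, several of which overlap each other, but no listed retained intron event. Plekhg2 had 2 annotated retained introns and 1 such event. Tbc1d10c stood out by 4 transcripts annotated as targets of nonsense-mediated decay, the pathway that destroys mRNAs with a premature stop codon, against 0 to 2 in the other 6 genes. Of 35 cassette exons, 16 (45.7%) were multiples of 3, against 45.5% over the cassette exons of all tested genes.

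G-tracts, the letters GGG or longer on the RNA strand, were frequent in the cassette exons of the 7 genes. They were present in 30 of 35 exons (85.7%), against 64.5% over all tested genes, but a run of at least 4 guanines was present in 9 (25.7%) against 25.9%. Several of the 35 exons overlap each other, so they are not independent. The shares were not adjusted for exon length (median 115 bases, against 106 over all tested genes). Over the longest spliced transcript of each gene, the density of G-tracts was 8.31 per kb in Zfp644, 9.48 in BC051142 and 10.3 in Nudt13, below the median of 12.03 per kb over all tested genes. It was above that median in Sfi1 (15.4 per kb), 2410002F23Rik, Plekhg2 (15.8 per kb) and Tbc1d10c (19.3 per kb). Among introns, only the annotated retained ones were searched for G-tracts. In Cd40, the paper placed the G-tracts bound by hnRNP F in introns, near their 5′ splice sites. A match of letters is a description of the sequence and not a binding site.

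Few genes whose proteins work with or resemble those of the better known members passed the test, and none was called by edgeR. Over all genes tested, 6.97% had an adjusted p of at most 0.05 and 20.3% an unadjusted p under 0.05. Of 16 tested genes of the calcineurin and Ras list of Tbc1d10c (Ppp3ca, Nfatc1 and Nfatc3 have the most counts), none passed an adjusted p of 0.05 by edgeR or DESeq2 and 1 had an unadjusted p under 0.05, and the median log2 fold change was -0.05. The median over all tested genes was -0.00.

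Of 13 tested genes of the centriole list of Sfi1, which holds Pcnt, Cep192 and Cep63, 1 was lower in Hnrnpf bKO: Cep135, a centriole assembly protein, at 890 and 953 counts in WT, against 610 and 790 in the bKO libraries (log2 fold change -0.33, SE 0.09, adjusted p = 0.0382, edgeR). The list's median was -0.14. Of 10 tested genes of the H3K9 methylation list of Zfp644, including Ehmt2, Cbx5 and Trim28, none passed by edgeR or DESeq2, 2 had an unadjusted p under 0.05, and the median was -0.01. Of 17 other tested Nudix genes, led in counts by Nudt21, Nudt3 and Nudt9, 1 was higher in Hnrnpf bKO: Nudt14, a UDP-sugar hydrolase, at 176 and 219 counts in WT, against 253 and 276 in the bKO libraries (log2 fold change 0.50, SE 0.13, adjusted p = 0.0345, edgeR). The list's median was 0.06. DESeq2 gave neither Cep135 nor Nudt14 an adjusted p of at most 0.05.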

How the data were processed

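FOB cell RNA was sequenced from 2 WT and 2 Hnrnpf bKO libraries after poly(A) selection (paired-end reads). Per the labels and the paper's methods, the authors used bcl2fastq 2.17.1.14, FastQC 0.10.1, Cutadapt 1.9.1, HISAT2 2.0.1 on GRCm38 and HTSeq 0.6.1. The deposited counts are whole reads per gene without normalization, and the authors computed the deposited FPKM values from counts and gene size. The strand setting and annotation release of the counting are not given in the sources used here. The authors' rMATS table holds an inclusion level difference (WT minus Hnrnpf bKO) and an FDR per event. These are the authors' own comparison, so only event type and direction were used and neither value is printed.

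The 7 genes, the partner lists and the markers were chosen with earlier results of these data known. Counts were fitted for all genes with edgeR 4.0.16 in R 4.3.3 (TMM scaling, filterByExpr, quasi-likelihood F test, Benjamini-Hochberg adjustment) with calls at a 2-fold change and an adjusted p of at most 0.05. The 7 genes are described from this fit, with counts of those passing its thresholds and 95% intervals. Alternatives were DESeq2 1.42.0, limma 3.58.1 on log2(FPKM + 0.1) and log2(FPKM + 1), no filter, leaving out a library and a replicate block. The fit was tested on simulated data. Genes averaging 100 counts or more had a median SE of 0.08 (log2 fold change), and those below it 0.40. Nothing says that libraries came from separate mice, so p-values measure the spread between these libraries. A permutation test of 2 against 2 cannot go below p = 0.333.

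Transcripts, exons and sequences came from GENCODE on GRCm38, whose coordinates were the same as the deposited ones for 7 of 7 genes. Near-identical transcripts were searched with blastn 2.17.0 (at least 90% identity over 200 bases). Named were the 7 genes, Hnrnpf, some but not all genes that overlap or resemble the 7, and the nearest genes by event profile. Of each partner list that is given, the genes with an adjusted p of at most 0.05 and the 3 with the most counts were named. A partner list and a marker are not reported here.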

Additional observations from a re-analysis of the deposited data

How the results depend on the processing

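None of the 7 genes was called under any alternative run. The log2 fold changes of BC051142 (0.16 to 0.34), Tbc1d10c (0.14 to 0.22) and Plekhg2 (-0.18 to -0.13) kept their sign under every alternative. Those of Sfi1, Nudt13, Zfp644 and 2410002F23Rik lay near 0 and changed sign when a library was left out (Nudt13 from -0.04 to 0.07, Sfi1 from -0.01 to 0.03, Zfp644 from -0.02 to 0.14, 2410002F23Rik from -0.12 to 0.04), and Sfi1 also changed sign with limma, to -0.01. With no filter on low counts, 1 of the 7, Tbc1d10c, had an adjusted p of at most 0.05. Over all genes, the 127 calls (91 higher, 36 lower) became 84 with DESeq2 (22 lower), 217 with no filter (150 higher, 67 lower), 22 with limma on log2(FPKM + 0.1) (17 higher, 5 lower), 19 on log2(FPKM + 1) (16 higher, 3 lower) and 985 with no fold threshold (586 higher, 399 lower). Leaving out a library in turn gave 95 to 150 calls, 71 to 113 higher and 24 to 58 lower, where the genotype left with 1 library was assumed to vary like the other. Without Hnrnpf bKO replicate 1 there were 58 lower calls. The replicate numbers are not known to pair libraries (correlation of deviations -0.07), and with a replicate block 98 genes were called (71 higher, 27 lower). Counted once per gene, type and direction, the 36 events came to 21. Basic transcripts alone held 6 of the 35 cassette exons, and 9 of the 30 exons with a G-tract had one of at least 4 guanines. BC051142, at a mean of 163 counts, had the largest SE of the 7 genes (0.16).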
